A study of Saccharomyces cerevisiae with 6 samples.

Results

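The values described here come from a barcode microarray that set a pool of yeast deletion strains transformed with an ISU1 cassette against the same kind of pool transformed with a plasmid. Every strain with a value on that array was taken, and no strain was chosen by its value. This gave 4248 deletion strains, against 4290 on the companion array for a SOD2 cassette and 4303 on either array. The series holds 6 samples, and the ISU1 cassette was measured on 1 of them, so no replicate exists and no test of a difference could be made.

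The strains formed a library of Saccharomyces cerevisiae homozygous diploids, in which each strain lacks both copies of 1 gene and carries short DNA barcodes that identify it. A portion of the library received the linear isu1Δ::URA3 cassette, which carries the URA3 marker to the ISU1 locus. The control portion received pRS416, a circular plasmid that carries URA3 and replicates without integrating. Both kinds of transformant were grown for 2 days at 30 °C on solid medium lacking uracil, and the barcodes were amplified from their genomic DNA with Cy3- or Cy5-labelled primers. On this array the cassette pool carried Cy3 and the plasmid pool carried Cy5, and the dyes were the other way round on the SOD2 array. A homozygous deletion library holds only genes that yeast can live without.

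A linear cassette enters a chromosome by homologous recombination. The cell resects the DNA ends, proteins of the RAD52 group find the matching sequence and exchange strands, and flap-cutting nucleases such as Rad1-Rad10 can trim ends that do not match. A circular plasmid needs uptake, expression of the marker and segregation, but no recombination, so a ratio of the pools sets integration against the other steps of transformation. ISU1 itself encodes the mitochondrial scaffold protein on which iron-sulphur clusters are assembled.

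The deposited value is a linear ratio of the pools for each barcode, called a tag below, and most strains have 2 tags. No source at hand states which pool is on top of the ratio, so values are called above or below the array median and are not read as more or less integration. Values are log2 of the ratio less the array median, averaged over a strain's tags. The median ratio was 1.00, so a strain with a ratio of 2 lies at about 1 on this scale. Tag ratios in the text give the lower-numbered tag first. The tags of a strain are readings of the same pools on the same array and do not replicate the transformation. Tags of a strain correlated with r = 0.67 over the 3714 strains with both, and they share the pools, the labelling and the array. The SD of a single tag was 0.28 on the log2 scale, that of the mean of both tags was 0.20, and strains had an SD of 0.48 between them.

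Of the 4248 strains, 137 (3.23%) lay at least 2-fold above the array median and 79 (1.86%) at least 2-fold below it. Those farther than 4-fold from it were 17 above and 4 below. The middle of the array was narrow, with quartiles at −0.26 and 0.24, and 94.9% of strains lay within 2-fold of the median. For strains with both tags, the tags lay on the same side of the median in all 101 of those counted above and in all 56 of those counted below. Strains were counted by the mean of their tags, so this follows largely from the way they were counted. Both tags passed 2-fold by themselves in 62 strains above and in 32 below. Strains with 1 tag passed more often, at 6.74% above and 4.31% below, against 2.72% and 1.51% of strains with both tags. Strains just inside the limit included the cyclin gene deletion CLB3 at 1.00 above and SUR7, whose 1 tag read 0.50, below, and HPC2 at −0.99 lay just outside it.

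**Figure D1:**
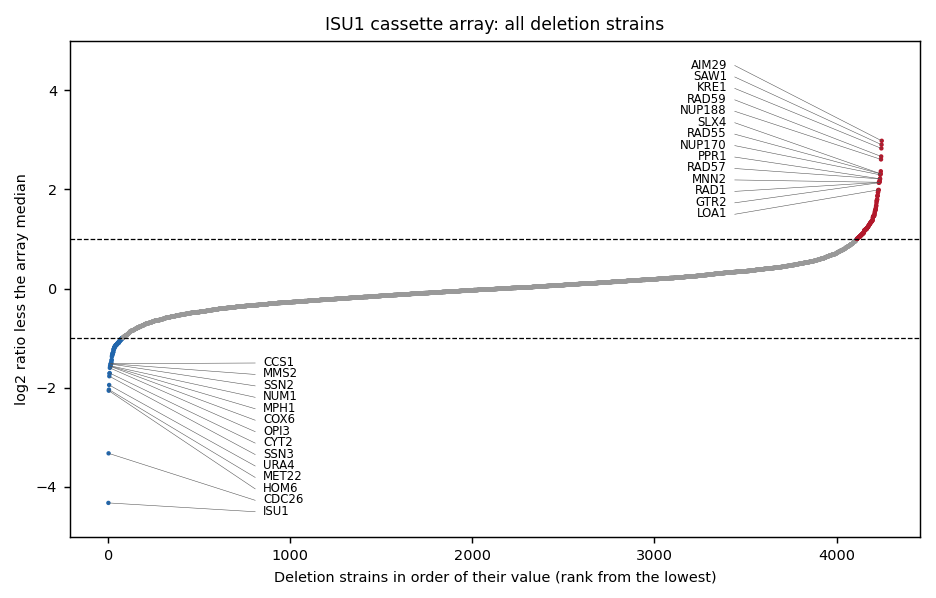
Every strain on the ISU1 cassette array, ordered along the horizontal axis from the lowest to the highest value, with the log2 ratio less the array median on the vertical axis. Dashed lines mark 2-fold, red points are the 137 strains above and blue points the 79 below, and the 14 most extreme named strains at each end are labelled, from ISU1 at −4.32 to AIM29 at 2.98.

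The high pole held strains that lack genes of homologous recombination and flap cleavage among a larger number whose genes have other roles. The 30 highest strains with a gene name and both tags lay between 1.47 and 2.98, which is 2.77- to 7.90-fold above the median. Of these, 8 lack a gene of the RAD52 group, the Shu complex or flap cleavage, and 22 lack other genes. The median gap between their tags was 0.39. On the SOD2 array the same 30 strains had a median of 1.97, with a range from −0.27 to 3.20. The 30 lowest such strains lay between −2.06 and −1.14, or 2.20- to 4.17-fold below the median, with a median gap of 0.36. Their SOD2 values had a median of −0.70 and ran from −3.32 to 0.22. The lowest strain of all was that lacking ISU1, the gene the cassette targets.

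**Figure D2:**
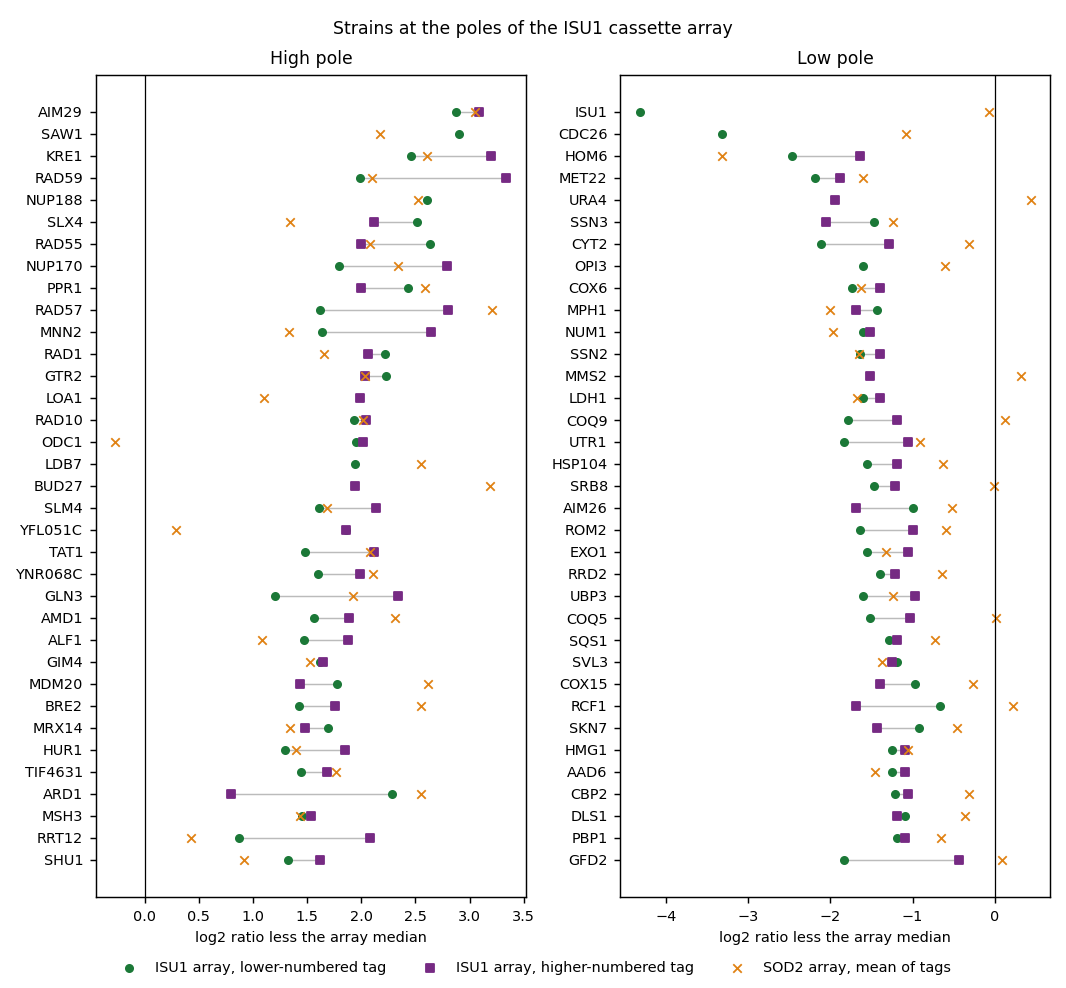
The 30 highest and 30 lowest named strains with both tags and the 5 most extreme with 1 tag at each end; the horizontal axis is the log2 ratio less the array median. Green circles and purple squares are the tags on the ISU1 cassette array and orange crosses the mean on the SOD2 array; ODC1 lies near 2 on the ISU1 array and at −0.27 on the SOD2 array.

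The RAD52 group carries out the search for matching sequence and the strand exchange. Of the 7 genes listed for it, 5 had a strain on the array. RAD59, which encodes a Rad52 paralogue that anneals single strands, had tag ratios of 3.98 and 10.12, for a mean of 2.67 on the log2 scale. RAD55 and RAD57 encode the partners of a heterodimer that acts early in strand exchange, and their strains lay close together. RAD55 had tag ratios of 6.20 and 4.00 (2.32), and RAD57 had 3.08 and 6.99 (2.21). Those means differ by less than the SD of a single tag. RAD54, a translocase that acts in strand exchange, had a single tag at 3.68 (1.88). RDH54, its paralogue, lay at 0.30, well under the other members. The list thus had 4 of 5 strains above and 0 below, with a median of 2.21, while the median over all strains was near 0 by construction.

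The Shu complex, which promotes homologous recombination, had all 4 of its strains on the array and 3 of them above. SHU1 had tag ratios of 2.50 and 3.07 (1.47), PSY3 had 3.07 and 2.09 (1.34), and CSM2 had 2.76 and 1.89 (1.19). SHU2 lay under the limit at 0.86. All 4 strains were thus over the median, with means lower than those of RAD55, RAD57 and RAD59. The lower tag ratio of RAD57, 3.08, was close to the 3.07 of SHU1. The spread between transformations was not measured, so this order is not resolved. XRS2 of the Mre11 complex lay at 0.94 and SAE2, its cofactor, at −0.02, and neither passed 2-fold. MRE11 and RAD50 had no strain here.

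Flap cleavage was the list with every measured strain above. Rad1-Rad10 is a structure-specific nuclease that cuts off the unmatched tails of recombining DNA, and Saw1, Slx4 and Msh3 assist it. SAW1 had 1 tag at 7.48 (2.90), the second highest strain on the array. SLX4 had tag ratios of 5.73 and 4.33 (2.32). RAD1 had 4.65 and 4.19 (2.14) and RAD10 had 3.81 and 4.12 (1.99), so the subunits of this nuclease lay within the SD of a tag of each other. MSH3 had 2.74 and 2.90. The 5 strains had a median of 2.14 with the ISU1 cassette and of 1.65 with the SOD2 cassette. The remaining mismatch repair strains lay near or below the median, with MSH6 at −0.12, MLH3 at −0.18, MLH2 at −0.26 and PMS1 at −0.55. Nucleotide and base excision repair, which shares RAD1 and RAD10, was listed here without them. All its 14 strains lay from −0.48 to 0.38, within 2-fold like 94.9% of all strains.

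The measured strains of long-range resection lay at the other pole. Exo1 and Sgs1 degrade DNA ends over long distances, and Fun30 is a nucleosome remodeller known to aid them. FUN30 had a single tag at 0.37 (−1.43), EXO1 had tag ratios of 0.34 and 0.48 (−1.31), and SGS1 had a single tag at 0.41 (−1.29). All 3 measured strains of this list of 6 genes lay below, and their means differed by less than the SD of a tag. DNA2, RMI1 and TOP3 had no strain here. On the SOD2 array they lay at −1.20 for FUN30, −1.33 for EXO1 and −0.86 for SGS1. MPH1, which encodes a helicase that takes apart strand-invasion intermediates, had tag ratios of 0.37 and 0.31 (−1.56) and stood at −2.00 on the SOD2 array. The strains of long-range resection were thus low on this array, while those of strand exchange and flap cleavage were high.

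Checkpoint strains were spread between the poles. DUN1, a kinase that raises nucleotide supply after damage, had tag ratios of 2.61 and 2.94 (1.47). It was the only one of 12 such strains above, while 3.23% of all strains lay above. The clamp loader RAD24 lay at −0.94, and the clamp subunits MEC3, RAD17 and DDC1 lay at −0.86, −0.81 and −0.64. RAD9, the adaptor that restrains resection, lay at 0.79. None of these 5 passed 2-fold, but the 4 strains of the clamp and its loader all fell on the low side and RAD9 on the high side.

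Other DNA repair lists held few strains past 2-fold. Over all strains 3.23% lay above and 1.86% below, so a list of this size with few or none does not stand apart from the array. Non-homologous end joining, which seals ends without a template, had all 5 strains between −0.27 and 0.28. The RAD6 pathway of damage tolerance had MMS2 below at a single tag ratio of 0.35 (−1.51). Its tag ratio on the SOD2 array was 1.32, or 0.32 on the log2 scale, over the median. UBC13, which encodes the partner of Mms2, lay at −0.69, against 0.85 on the SOD2 array. RTT107 at 0.90, ESC2 at 0.86 and ELG1 at 0.70 were the strains farthest from the median in their lists of replication-linked repair, and none of these passed 2-fold. Other helicases and nucleases that oppose or resolve recombination, listed without SGS1, had 10 strains of 8 genes, with SLX4 above, MPH1 below and the rest within 2-fold. Replication accessory factors had 0 of 10 strains past 2-fold, SUMO ligases 0 of 5, and silent chromatin and telomere factors 0 of 7.

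**Figure D3:**
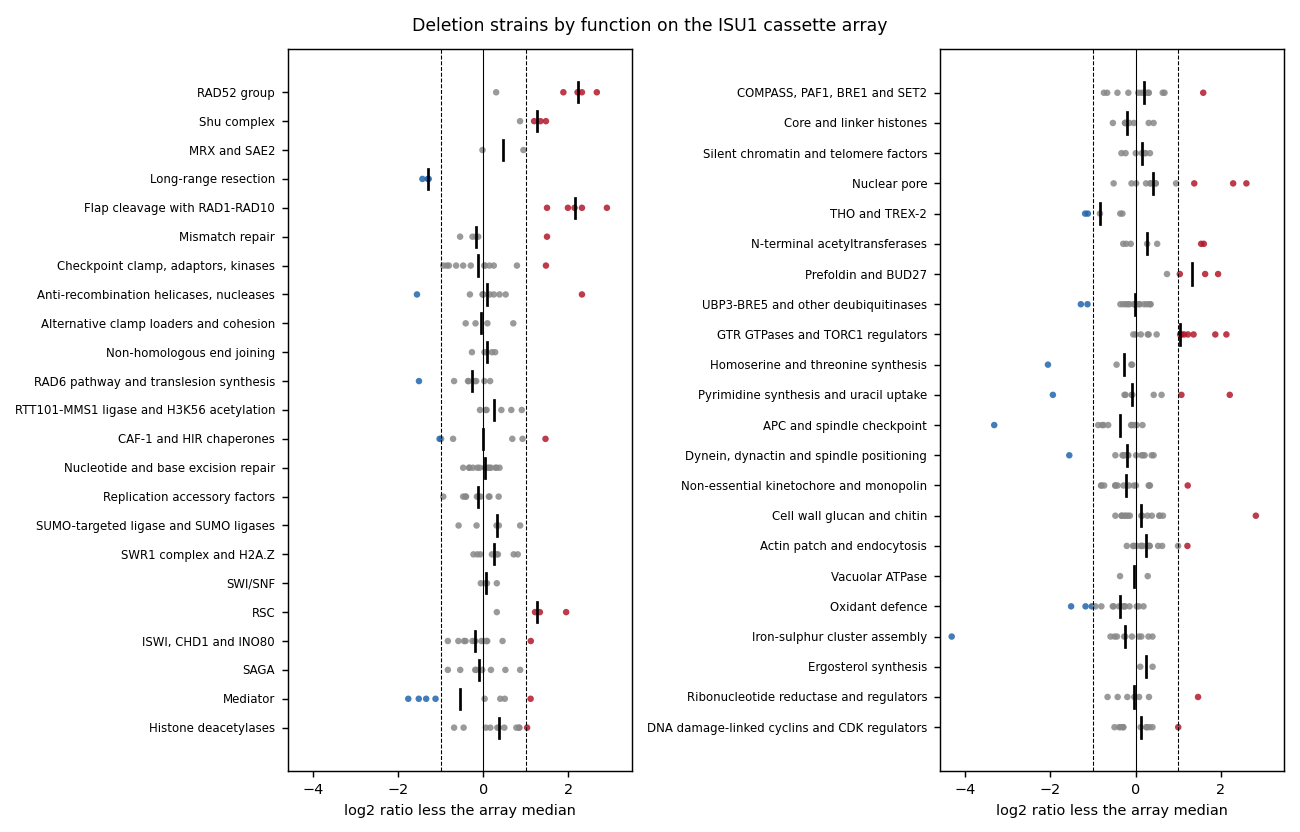
Each point is a deletion strain on the ISU1 cassette array, placed by its log2 ratio less the array median on the horizontal axis and grouped by the function of the deleted gene. Black bars are list medians and dashed lines mark 2-fold, with strains beyond them in red (above) or blue (below); flap cleavage has all 5 strains above and long-range resection all 3 below.

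Histone chaperones divided by complex. CAC2, RLF2 and MSI1 encode the subunits of CAF-1, which deposits histones on newly replicated DNA. CAC2 had tag ratios of 3.47 and 2.18 (1.46), and RLF2 and MSI1 lay at 0.92 and 0.68. HIR1, HIR3 and HPC2 encode subunits of the HIR complex, which deposits histones outside replication. HIR3 had 0.47 and 0.51 (−1.03), and HPC2 and HIR1 lay at −0.99 and −0.71. All 3 CAF-1 strains were over the median and all 3 measured HIR strains under it, although only CAC2 and HIR3 passed 2-fold. CAC2 lies beside NUP188 on its chromosome and HIR3 beside HOM6, and those neighbours are extreme in the same directions. An effect of the deletion on its neighbour was not tested.

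Among nucleosome remodellers, the measured RSC strains stood high. RSC is an abundant remodeller needed for transcription and for repair of breaks, and LDB7, RSC1 and RSC2 encode subunits that the cell can lack. LDB7 had 1 tag at 3.85 (1.94), RSC1 had tag ratios of 1.75 and 3.60 (1.33), and RSC2 had 1 tag at 2.32 (1.21). RTT102, a subunit shared with SWI/SNF, lay at 0.32. No RSC strain had both tags past 2-fold, and HTL1, NPL6 and RSC30 had no strain here. The 4 RSC strains had a median of 1.27, while SWI/SNF had 0 of 4 past 2-fold and a median of 0.06. SWI/SNF was measured without SNF2, SNF5, SNF12, SWI3 and TAF14. SWR1 and H2A.Z had 0 of 8, with YAF9 highest at 0.81. ISWI, CHD1 and INO80 had 1 of 13, which was ISW1 with 2.21 and 2.12 (1.11). Over all strains 3.23% lay above and 1.86% below.

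Mediator strains were low for the kinase module. The kinase module of Mediator, which represses and tunes transcription, consists of the kinase Ssn3, its cyclin Ssn8 and the large subunits Ssn2 and Srb8, and all 4 strains were below. SSN3 had tag ratios of 0.36 and 0.24 (−1.77), SSN2 had 0.32 and 0.38 (−1.52), and SRB8 had 0.36 and 0.43 (−1.35). SSN8 had 0.60 and 0.35 (−1.13). The first 3 had both tags past 2-fold, and SSN8 had 1. On the SOD2 array SSN3, SSN2 and SSN8 lay at −1.24, −1.65 and −1.11, but SRB8 lay at −0.01. PGD1, of the tail module, was above, at 2.45 and 1.90 (1.11). SIN4 and NUT1, also counted to the tail, lay at 0.03 and 0.40, and SRB2, of the head, lay at 0.50.

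Histone modifiers held single strains past the limit. BRE2, a subunit of the COMPASS methyltransferase of histone H3, had tag ratios of 2.68 and 3.39 (1.59). The other 12 strains of that list, which include further COMPASS subunits, lay within 2-fold, with SWD1 at −0.67 and SWD3 at −0.42. BRE2 is also the chromosomal neighbour of PPR1, another strain of the high pole. Among histone deacetylase subunits HDA3 was above at 1.03, and HDA2, its partner in the Hda1 complex, lay at 0.85. SAGA had 0 of 8 strains past 2-fold, and core and linker histones 0 of 8, while 94.9% of all strains lay within 2-fold.

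Some nuclear pore strains were among the highest on the array. NUP188 and NUP170 encode scaffold proteins of the inner ring, and POM152 and POM34 encode proteins that anchor the ring in the membrane. NUP188 had 1 tag at 6.09 (2.61), NUP170 had tag ratios of 3.47 and 6.94 (2.29), and POM152 had 2.26 and 3.00 (1.38). POM34, at 1.92 and 1.95 (0.95), lay just under the limit. The other 8 pore strains lay between −0.51 and 0.48, among them NUP53 at 0.48 and ASM4 at 0.47, which also encode inner ring proteins, and the basket genes MLP1 at −0.09 and NUP60 at −0.51. THO, which couples transcription to export of messenger RNA, stood on the other side. THP2 and MFT1 each had 1 tag, at 0.44 (−1.18) and 0.46 (−1.12). THP1, SEM1 and SAC3 of the export complex TREX-2 lay at −0.84, −0.36 and −0.31, so all 5 strains of the list were under the median and 2 passed 2-fold.

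Nutrient signalling gave the list with the most strains above. Gtr1 and Gtr2 are GTPases that report amino acids to the TORC1 kinase at the vacuole, where Meh1 and Slm4 tether them. Lst4 and Lst7 form the activating protein for Gtr2, and Tco89 is a TORC1 subunit. All 7 of these strains were above, of 13 in the list. GTR2 had tag ratios of 4.70 and 4.11 (2.14), SLM4 had 3.06 and 4.40 (1.88), and MEH1 had 2.60 and 2.55 (1.36). LST7 followed at 1.23, TCO89 at 1.14, GTR1 at 1.08 and LST4 at 1.05. TOR1 lay at 0.50, and the strains of the SEA complex, which acts on Gtr1, lay from −0.05 for NPR3 to 0.31 for RTC1. The list median was 1.05 with the ISU1 cassette and 0.99 with the SOD2 cassette. GTR2 is a chromosomal neighbour of TIF4631, and LST7 of RSC1, both also high.

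Further strains of the high pole concern protein folding and modification. Prefoldin hands unfolded actin and tubulin to their folding machine, and BUD27 encodes a protein of the same family. BUD27 had 1 tag at 3.84 (1.94), GIM4 had tag ratios of 3.08 and 3.14 (1.64), PFD1 lay at 1.04 and YKE2 at 0.74. ALF1, a tubulin folding cofactor, had 2.77 and 3.68 (1.67). N-terminal acetyltransferases had ARD1, of NatA, at 4.88 and 1.74 (1.54) and MDM20, of NatB, at 3.42 and 2.71 (1.61). The gap between the tags of ARD1 was wide, and NAT1, which encodes the other main subunit of NatA, lay at 0.27. On the SOD2 array ARD1 stood at 2.55 and NAT1 at 1.48.

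Among the strains with other roles, AIM29 was the highest on the array, with tag ratios of 7.34 and 8.50 (2.98). It encodes a protein of poorly known function. KRE1, a cell wall glycoprotein involved in beta-glucan assembly and a receptor for the K1 killer toxin, had 5.51 and 9.16 (2.83). AIM29, SAW1 and KRE1 lay within the SD of a tag of each other, so their order is not resolved. The other 14 strains of the cell wall list were within 2-fold. MNN2, a mannosyltransferase of the Golgi, had 3.12 and 6.27 (2.15), and LOA1, a lysophosphatidic acid acyltransferase, had 1 tag at 3.98 (1.99).

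Several amino acid, nucleotide and translation genes were also high. GLN3, an activator of nitrogen-regulated genes, had tag ratios of 2.31 and 5.06 (1.77). TAT1, an amino acid permease, had 2.80 and 4.33 (1.80). AMD1, the AMP deaminase of purine metabolism, had 2.95 and 3.71 (1.73). TIF4631, which encodes a form of the initiation factor eIF4G, had 2.72 and 3.22 (1.57). Their SOD2 values were 1.93 for GLN3, 2.08 for TAT1, 2.32 for AMD1 and 1.77 for TIF4631. SWI4 and SWI6, partners in the SBF activator of G1 genes, were above at 1.13 and 1.05.

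Uracil is the nutrient under selection, and genes of its synthesis lay at both ends. PPR1, the activator of the URA genes, had tag ratios of 5.39 and 4.00 (2.22). URA7, which encodes CTP synthase, had 1.94 and 2.30 (1.08), and its paralogue URA8 lay at −0.08. URA4, the dihydroorotase of the same pathway as URA3, had 1 tag at 0.26 (−1.94), and its SOD2 value was 0.44. The rest of the 9 measured strains lay within 2-fold, including URA10 at −0.26 and CPA1 at 0.61. Growth of each strain on the selective medium was not measured here.

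The low pole below ISU1 opened with CDC26, a subunit of the anaphase-promoting complex, whose single tag read 0.10 (−3.32), with −1.09 on the SOD2 array. The other 9 strains of that complex and the spindle checkpoint were within 2-fold, with CDH1 at −0.88, SWM1 at −0.79 and MAD1 at −0.75 among those under the median, and MND2 at 0.03 and BUB1 at 0.16 over it. HOM6, homoserine dehydrogenase of the threonine and methionine pathway, had tag ratios of 0.18 and 0.32 (−2.06) and −3.32 on the SOD2 array. The other homoserine and threonine strains were within 2-fold, with THR1 at −0.45, HOM2 at −0.10 and THR4 at −0.08. MET22, a phosphatase that removes an inhibitory product of sulphate assimilation, had 0.22 and 0.27 (−2.04). NUM1, which anchors dynein and mitochondria at the cell cortex, had 0.33 and 0.35 (−1.56). It was the only one of 15 strains of the dynein and spindle positioning list past 2-fold. Of all strains, 3.23% lay above and 1.86% below.

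Ubiquitin removal contributed a matched pair. UBP3 encodes a deubiquitinase and BRE5 its cofactor, and they were the only strains of 18 in that list past 2-fold. UBP3 had tag ratios of 0.33 and 0.51 (−1.29) and BRE5 had 0.51 and 0.41 (−1.13). Their SOD2 values were −1.24 and −1.54, and the other 16 strains on the ISU1 array lay between −0.36 and 0.36. Other low strains were HSP104, the protein disaggregase, at −1.37, ROM2, an activator of the Rho1 GTPase, at −1.32, and OPI3, a methyltransferase of phosphatidylcholine synthesis, with 1 tag at −1.60.

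Some strains lacking genes of mitochondrial respiration also lay at the low pole. Among other mitochondrial families, MRX14 at 1.59 and PET112, with 1 tag at 1.34, were above. Cytochrome c oxidase, the last complex of the respiratory chain, gave 3 strains below. COX6, a structural subunit, had tag ratios of 0.30 and 0.38 (−1.57), COX15, an enzyme of haem a synthesis, had 0.51 and 0.38 (−1.18), and COX7 had 1 tag at 0.48 (−1.06). RCF1, a respiratory supercomplex factor, had 0.63 and 0.31 (−1.18), with a wide gap. CYT2, the enzyme that attaches haem to cytochrome c1, had 0.23 and 0.41 (−1.70). Among factors for the bc1 complex, CBP2, which aids splicing of the cytochrome b message, had 0.43 and 0.48 (−1.14), and CBP4, an assembly factor, lay at −1.06. Of the subunits of the bc1 complex, QCR2 had 1 tag at 0.47 (−1.09) and QCR9 had 0.65 and 0.36 (−1.05). The other QCR and CBP strains were within 2-fold. QCR6 lay at −0.76, QCR8 at −0.70, CBP1 at −0.45 and CBP6 at −0.06, while CBP3 and QCR10 lay over the median, at 0.20 and 0.24.

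Ubiquinone carries electrons to the bc1 complex, and COQ genes make it. COQ9 had tag ratios of 0.29 and 0.44 (−1.49) and COQ5 had 0.35 and 0.49 (−1.27). When strains were grouped by the letters of their gene symbol, 121 families had at least 5 strains. QCR had the lowest median of these, −0.76 over 5 strains, and COQ followed with −0.68 over 8, all 8 of them under the median. CBP lay next at −0.45, then IES at −0.42 over 5 strains and GCN at −0.42 over 6. IES genes encode INO80 subunits, and GCN genes mostly encode factors of general amino acid control. COX, singled out after its values were seen, had a median of −0.34, with 15 of 17 strains under the array median. The SOD2 medians of the same strains were −0.25 for QCR, −0.07 for COQ, −0.38 for CBP and −0.29 for COX.

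Other mitochondrial families were spread around the median. PET genes, which encode varied factors for respiratory growth, had a median of −0.28 over 10 strains, with 7 under the array median, and MSS genes had −0.20 over 6. SDH genes of succinate dehydrogenase and its relatives had a median of 0.08 over 6 strains, ATP genes of the ATP synthase −0.05 over 11, and MRPL genes of the mitochondrial ribosome −0.06 over 20. On the high side, MRP genes had a median of 0.18 over 8 strains and MRX genes 0.27 over 17, with 12 over the array median. The highest families were ALG, of glycan assembly in the endoplasmic reticulum, at 0.62 over 5 strains, and LDB, RTT, RIM and UBX, whose medians lay between 0.38 and 0.42. RIM genes largely act in the pH response pathway, and RIM13, its protease, was above at 1.12.

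**Figure D4:**
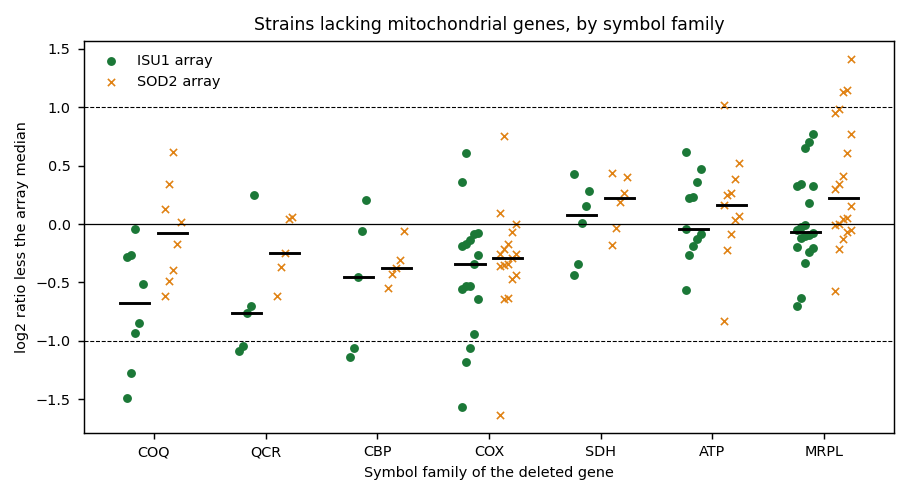
Strains lacking mitochondrial genes, grouped on the horizontal axis by the letters of the gene symbol; the vertical axis is the log2 ratio less the array median. Green circles are the ISU1 cassette array, orange crosses the SOD2 array and black bars the medians; all 8 COQ strains are under 0 on the ISU1 array, and the MRPL strains spread around 0 there.

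Strains of defence against oxidants lay mostly under the median. Of 16 strains, 13 lay under the median and 3 were at least 2-fold below, against 1.86% of all strains at least 2-fold below. CCS1, the copper chaperone of superoxide dismutase Sod1, had 1 tag at 0.35 (−1.51), and SOD1 lay at −0.80. SKN7, a regulator of the oxidative stress response, had tag ratios of 0.53 and 0.37 (−1.18), and HYR1, a peroxide sensor and peroxidase, had 1 tag at 0.49 (−1.03). The peroxiredoxin TSA1 followed at −0.94. The strain lacking SOD2 had 1 tag and lay at −0.51. On the SOD2 array CCS1 and SOD1 were on the other side of the median, at 0.36 and 0.81. SKN7, HYR1 and TSA1 stayed under it there, at −0.46, −0.75 and −0.41, and the list median was −0.23. UTR1, an NAD kinase that makes NADP for reductive defence, had 0.28 and 0.48 (−1.45), and POS5, the mitochondrial kinase of the same kind, was above with 1 tag at 2.49 (1.32).

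The strain lacking ISU1 carries the deletion that the cassette would make. Its 1 tag with a value read 0.05, the lowest ratio on the array and 20.0-fold below the median. Since ratios were deposited to 2 decimals, 0.05 covers values from 0.045 to 0.055, or 18.2- to 22.2-fold below. On the SOD2 array the same strain had tag ratios of 1.03 and 0.99, a mean of −0.07. Other strains of iron-sulphur cluster assembly were not extreme on the ISU1 array. ISU2, the paralogue of ISU1, lay at −0.50 and NFU1, a later scaffold, at −0.59. The 10 strains of this list other than ISU1 were all within 2-fold.

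Strains lacking the genes beside ISU1 on chromosome XVI were examined next, because their deletions lie near the site of integration. The gene order is that of the RefSeq table, and 10 of the 11 genes of this stretch, ISU1 included, had a strain. ODC1, the next gene on one side, which encodes a mitochondrial dicarboxylate carrier, had tag ratios of 3.88 and 4.04 (1.99), against −0.27 on the SOD2 array. GIP3, the next gene on the other side, had 1.88 and 2.44 (1.10), and its SOD2 value was 0.69. RDS2, beyond ODC1, lay at 0.65, with −0.09 on the SOD2 array. The genes farther out lay between −0.56 for COX11 and 0.36 for UME1. The high values were therefore next to ISU1, and the strain of ISU1 itself was at the opposite end. How far the cassette's matching sequence reaches into these genes was not given in the sources used here.

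**Figure D5:**
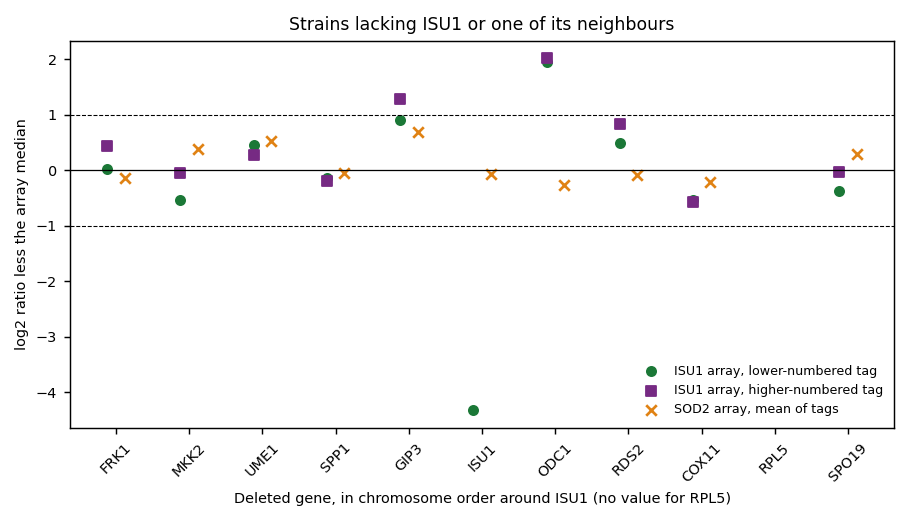
Strains lacking ISU1 or 1 of its neighbours, in chromosome order on the horizontal axis; the vertical axis is the log2 ratio less the array median. Green circles and purple squares are the tags on the ISU1 cassette array and orange crosses the mean on the SOD2 array; ISU1 lies at −4.32, ODC1 at 1.99 and GIP3 at 1.10 on the ISU1 array.

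Across the array, strains above lay beside other strains above more often than the remaining strains did. Of the 121 strains above that had a measured neighbour by array feature number, 19 (15.7%) had a neighbour also above, against 172 (4.54%) of the other 3790 strains. Below, the counts were 4 of 74 (5.41%) against 116 of 3837 (3.02%), and they rest on 2 adjacent pairs. The 10 adjacent pairs above, of which 6 had both strains named, included NUP170 with PET112, PGD1 with TRP5, and CAC2 with NUP188. Feature numbers follow gene order on the chromosomes, so a position on the array and a chromosomal neighbourhood cannot be told apart.

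Some strains of the poles were near the median for the other cassette. Besides ODC1, the high strains PHO86 and YFL051C lay at 1.77 and 1.86 on the ISU1 array, against −0.04 and 0.29 on the SOD2 array. YFL051C had nearly equal tag ratios of 3.64 and 3.63, and PHO86, a protein of the endoplasmic reticulum that aids export of a phosphate transporter, had 1 tag at 3.40. Of the low strains, COQ9, COQ5, RCF1 and SRB8 lay at 0.13, 0.02, 0.22 and −0.01 on the SOD2 array. Both arrays stand alone without replicates and may share a plasmid pool, so these differences were not tested.

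Precision differed between strains. For 81.8% of the strains with both tags the tags lay within 0.5 of each other on the log2 scale. Wide gaps occurred among the named strains, as for ARO9 with tag ratios of 0.24 and 1.09, MTL1 with 0.88 and 0.24, and CDC10 with 1.11 and 3.71. The mean of such a strain depends on which tag is read. Of the 137 strains above, 12 had no gene name, and of the 79 below, 4 had none.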

How the data were processed

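Barcodes were amplified with labelled primers and compared on 1 two-colour array per cassette, per the labels. The authors deposited linear ratios of the channels, to 2 decimals. Scaling, direction and signal over background were not given in the sources used here, and the number of arrays limits the precision. The table held 8120 features, of which 158 were empty on the ISU1 array. Features 10971 numbers apart named the same gene in all 3402 pairs with both named, and were treated as 1 strain. The median log2 ratio was subtracted and tags were averaged, giving 3789 named strains of 3747 genes and 459 without a name. Names came from the array annotation, updated through the RefSeq table (assembly R64), which was used for names and gene order only. Members and lists were chosen with earlier results of these data known. Named strains were the 30 most extreme with both tags and the 5 with 1 tag at each end, up to 6 per list, the 5 genes on each side of ISU1, the 5 highest and lowest families, and the 5 widest tag gaps. Other strains named were chosen after their values were seen. The expression arrays were not used here. Python 3.11.15, numpy 2.4.6, pandas 2.3.3 and matplotlib 3.10.9 were used, and the procedure was tested on simulated data. Alternatives changed the centring, the tags used and the fold limit.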

Additional observations from a re-analysis of the deposited data

Results flagged for a closer look

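GCR2, an activator of glycolytic genes, lay on opposite sides of the median on the cassette arrays, past 2-fold on each. Its single tag was at −1.15 on the ISU1 array, a ratio of 0.45, and the strain stood at 1.01 on the SOD2 array. With 1 array for each cassette the difference was not tested.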

How the results depend on the processing

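No paired analysis was possible because the ISU1 cassette has 1 array, and the replicate numbers that the labels share belong to the expression arrays, which were not used here. The count of strains above, 137, became 64 when only strains with tags within 0.5 were kept, 62 when each of both tags had to pass 2-fold, 345 at 1.5-fold and 36 at 3-fold. The count below, 79, became 124 from the lower-numbered tag alone, 35 with tags within 0.5, 32 with each tag past 2-fold, 323 at 1.5-fold and 9 at 3-fold. The stricter settings keep fewer strains by construction, and the cause of the rise with the lower-numbered tag was not tested. Centring by block or by a running median, the higher-numbered tag alone, linear averaging and strains with both tags only gave 101 to 141 above and 56 to 79 below. For 136 named strains, 913 of 972 recomputed values moved by less than the SD of a tag, 59 moved by more, and none past 2-fold changed sign. Many of the 972 could not move. Leaving out the centring changed nothing at this array's median ratio. Keeping only strains with both tags, or with close tags, left each value as it was. Of values read from a single tag, 29 of 115 (higher-numbered) and 29 of 130 (lower-numbered) moved by more than the SD of a tag. For 45 lists, 22 of 356 recomputed medians moved by more than that spread, and no median past 2-fold changed sign.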

Other observations

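These strains were chosen after their values were seen, and some genes of shared function had strains at the high pole. SNF7 and VPS4, which act in the ESCRT-III step of endosomal sorting, had tag ratios of 1.86 and 3.58 (1.37 on the log2 scale) and of 1.22 and 3.44 (1.03). Their SOD2 values were 1.53 and 1.35. RVS161, an endocytosis protein that bends membranes, had 1 tag at 2.33 (1.22), and the actin-binding protein ABP1 lay just under the limit at 1.00. RVS161 was the only strain past 2-fold among 14 of the actin patch and endocytosis list, while 3.23% of all strains lay above and 1.86% below. LRS4, of the monopolin complex that clamps kinetochores, was above with 3.15 and 1.74 (1.23), against 0.30 on the SOD2 array. MSN5, a nuclear transport receptor, had 2.80 and 2.70 (1.46), and ARG82, an inositol polyphosphate kinase, had 2.28 and 2.66.

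At the low pole the paralogues EFT1 and EFT2, which both encode elongation factor 2, lay at −1.09 and −1.02, and their SOD2 values were 0.46 and −0.08. SPT4, a transcription elongation factor, had tag ratios of 0.58 and 0.38 (−1.09), and stood at −1.77 on the SOD2 array. ROX1 and MOT3, repressors of hypoxic genes, had tag ratios of 0.47 and 0.53 for ROX1 and of 0.45 and 0.51 for MOT3, against SOD2 values of −0.09 and −0.15.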
